A study of Saccharomyces cerevisiae with 10 samples.

Results

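The cytosolic small-subunit (40S) ribosomal protein genes of budding yeast, Saccharomyces cerevisiae, are the subject here. They are 56 open reading frames, named RPS0A to RPS31, out of 6212 features listed for the array. They were chosen by identifier, as the genes of the small subunit, and encode 32 proteins: 8 from a single gene (among them RPS2, RPS3, RPS12, RPS13, RPS15, RPS20 and RPS31) and 24 from a pair of paralogous genes, copy A and copy B. Of the 56 genes, 50 had a value on at least 1 array and 45 on all 10. Values were missing on some arrays for RPS20, RPS22B, RPS23A, RPS26B and RPS28A. No value was given for RPS10B, RPS11B, RPS16A or RPS24A, whose entries were empty, and RPS19A and RPS30A had no entry.

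The small subunit binds messenger RNA and reads its codons, and its proteins fold around 1 ribosomal RNA to form a head, a body and a platform. Yeast cells make the ribosomal proteins in matched amounts, and their genes are known to be transcribed together, through factors such as Rap1, Fhl1, Ifh1 and Sfp1, under the control of nutrient signalling by TORC1 and protein kinase A. Their messenger RNAs are among the most abundant of growing cells and are known to fall together in many stresses.

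RNA of a strain labelled wt was compared with RNA of 5 strains labelled ptc1, ptc2, ptc3, ptc4 and ptc5, which bear the names of genes for type 2C protein phosphatases, enzymes that take phosphate off serine and threonine. All 6 strains were cultured in YPD, a rich glucose medium, at 28 °C, and taken in log phase at an A660 of 0.6 to 0.8. The sources used here give neither the strain background nor the kind of allele. Each mutant was hybridised against wt on 2 two-colour arrays with the dyes swapped, the mutant in Cy5 and wt in Cy3 on array number 1 and the reverse on array number 2. Each value is a log ratio, mutant over wt, taken as base 2, so that 0 means equal signal and a negative value means less signal in the mutant.

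The design text lists 1 RNA sample per strain. An SD over the 2 arrays of a mutant is therefore technical, a single mutant against wt has no test, and p-values between mutants measure only the spread between these extracts. By the same text 1 wt RNA sample stands in all 5 comparisons, though no label says whether it came from 1 culture. The values of the mutants are therefore given side by side and are not taken as independent of each other. A ratio says nothing of how abundant a transcript is, so levels are never compared between genes.

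The arrays held 4195 to 4802 values each, and the median over all features lay between -0.029 and 0.035 on 9 arrays and at 0.23 on array number 2 of ptc2. PTC1 read -1.97 and -1.86 on the ptc1 arrays, PTC3 read -8.79 and -6.91 on the ptc3 arrays, and PTC5 read -2.43 and -2.34 on the ptc5 arrays. PTC2 read -7.86 on the 1 ptc2 array that measured it, and PTC4 was measured on neither ptc4 array, so the ptc4 label was not checked by its gene. Copies of a pair can be nearly identical in sequence and share hybridisation. Their separate values are uncertain for that reason, and cross-hybridisation was not tested.

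In ptc1 every measured small-subunit gene had a mean below that of wt. The median over the 50 genes measured on both ptc1 arrays was -0.31, which is 1.24-fold lower than wt, and the means ran from -0.46 to -0.17. The median over all 4612 features measured on both arrays was -0.028. On array number 1 the genes ran from -0.47 to 0.19 with a median of -0.15, and on array number 2 from -0.74 to -0.085 with a median of -0.45. Both arrays were below 0 for 45 of the 50 genes, beside 1576 of the 4612 features. The mean was below 0 for 2619 of the 4612 features. In such bulk RNA, fewer cells of a kind and less RNA per cell cannot be told apart.

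**Figure D1:**
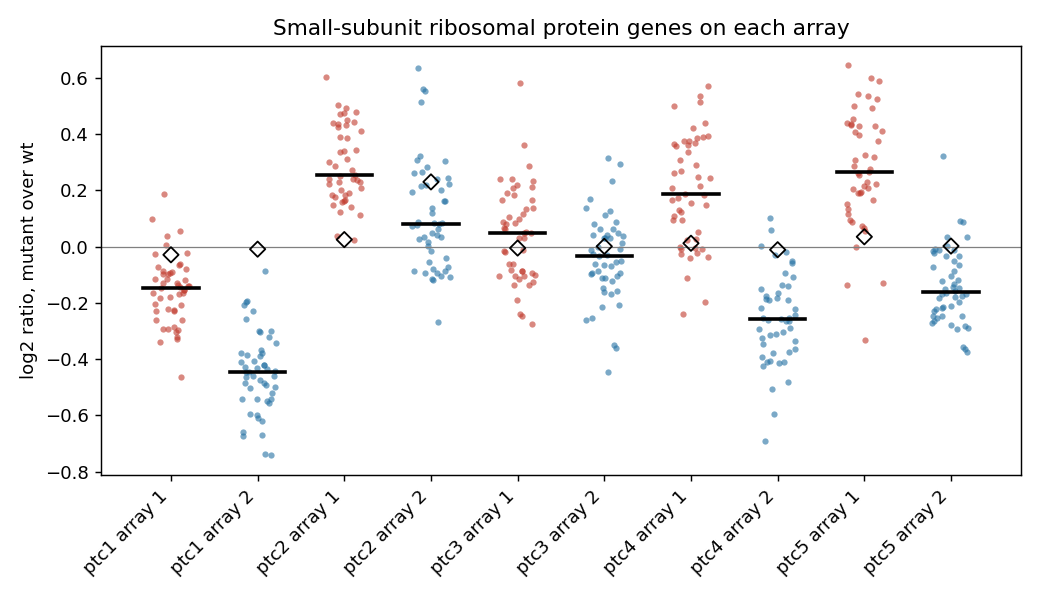
Log2 ratio of mutant over wt (vertical axis) for each small-subunit ribosomal protein gene (points) on each of the 10 arrays (horizontal axis), red for array number 1 and blue for array number 2; black bars are medians over these genes and open diamonds medians over all features. Both ptc1 arrays have their bar below 0, at -0.15 and -0.45, both ptc2 arrays above it, at 0.25 and 0.079, and ptc4 and ptc5 have one bar on each side.

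Genes were counted by size where the mean was at least 0.32 from 0 on the log2 scale with both arrays on that side. By this rule 21 of the 50 genes were lower in ptc1, beside 3.92% of all features, and none was higher, beside 6.33%. The lowest was RPS18A (YDR450W), whose protein lies in the head and contacts the large subunit. It read -0.47 and -0.46 on the arrays, a mean of -0.46 ± 0.00071 (SD, n = 2 arrays). RPS1B (YML063W), for a platform protein near the exit of the messenger RNA, read -0.23 and -0.60, and RPS28B (YLR264W), for a small protein at that exit, read -0.21 and -0.61. These 2 genes were low on both arrays but had most of their decrease on array number 2. The 3 least lowered were RPS9A (YPL081W), for a body protein near the mRNA entry channel, at -0.14 and -0.20, RPS1A (YLR441C) at -0.26 and -0.085, and RPS0B (YLR048W), for a protein on the back of the subunit, at -0.15 and -0.21. Copy A and copy B of RPS1 thus stood at opposite ends of the range in ptc1, with the order of the copies set by array number 2.

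The 5 genes that were not below 0 on array number 1 of ptc1 were all single-copy genes. Among them RPS15, for a head protein near the decoding site, read 0.19 there and -0.56 on array number 2. RPS13, for a platform protein, read 0.099 and -0.62. RPS31, which is made as a fusion with ubiquitin, read 0.038 and -0.66, and RPS20, for a head protein, read 0.0060 and -0.67. The other 3 single-copy genes were below 0 on both arrays: RPS2, for a protein of the mRNA entry channel, read -0.027 and -0.52, RPS3, whose protein lies at the same channel and is known for a role in quality control of stalled ribosomes, read -0.29 and -0.45, and RPS12, for a protein of the beak of the head, read -0.29 and -0.38. Over the 8 single-copy genes the median was 0.022 on array number 1 and -0.59 on array number 2. RPS3 and RPS12 were the single-copy genes whose ptc1 arrays differed least.

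In ptc2 the genes lay on the other side of wt. The median over the 45 genes measured on both ptc2 arrays was 0.197, beside 0.118 over all features. On both arrays 31 of the 45 were above 0 and 0 were below it, beside 1920 and 596 of 4086 features. On array number 1 all 45 measured genes were above 0, from 0.023 to 0.60, whereas on array number 2 14 of 49 were below 0, with a range from -0.27 to 0.64. On array number 2 the median over all features was above that of the small-subunit genes. Relative to the median over all features of the same array, the genes were at 0.22 on array number 1 and at -0.14 on array number 2. With each array centred on its own median, the median over the genes was 0.070. By size, 9 of 45 were higher, beside 21.6% of all features, and none was lower, beside 4.21%. The count of higher genes is thus near that of all features.

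The highest gene in ptc2 was RPS0B, at 0.49 and 0.64 on the arrays, followed by RPS2 at 0.60 and 0.32 and RPS0A (YGR214W) at 0.34 and 0.52. Both copies of RPS0 were therefore among the 3 highest, and both arrays of each were above 0. The lowest were RPS31 at 0.21 and -0.27, RPS12 at 0.023 and -0.073, and RPS29A (YLR388W), for a zinc-binding head protein, at 0.14 and -0.12. Each of these had its arrays on opposite sides of 0.

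In ptc3 the small-subunit genes were centred near wt, with a median of -0.032 over 49 genes beside 0.0030 over all features. None passed the size rule in either direction, beside 3.95% of all features lower and 4.22% higher. RPS0B was highest in the mean, at 0.58 and 0.061 on the arrays, then RPS7B (YNL096C), for a protein known as a target of ubiquitination, at 0.12 and 0.29, and RPS29B (YDL061C) at 0.23 and 0.11. The lowest were RPS27B (YHR021C), for a zinc-finger protein of the platform, at -0.13 and -0.36, RPS31 at -0.14 and -0.35, and RPS14A (YCR031C), for a platform protein needed to mature the subunit, at 0.086 and -0.45. Apart from RPS14A, each of these had both arrays on 1 side of 0.

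In ptc4 and ptc5 the means were near wt, with the 2 arrays on opposite sides of it. In ptc4 the median was 0.20 on array number 1 and -0.26 on array number 2 over the 48 genes measured on both. For the mean it was -0.021 beside 0.0050 over all features. Of the 48 genes 37 were above 0 on number 1 and below 0 on number 2, beside 1160 of 4152 features. In ptc5 the medians were 0.26 and -0.17 over 47 genes, and 0.076 for the mean beside 0.025 over all features. Of the 47 genes 38 were above and then below 0, beside 1211 of 4245 features. No gene passed the size rule in ptc4, beside 4.43% of all features lower and 6.00% higher, nor in ptc5, beside 7.28% lower and 6.83% higher.

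The lowest gene in ptc4 was RPS20, at 0.053 and -0.69, then RPS28B at -0.24 and -0.38 and RPS12 at -0.039 and -0.34. The highest were RPS29B at 0.54 and -0.058, RPS4A (YJR145C), for a body protein, at 0.29 and -0.018, and RPS8B (YER102W), for another body protein, at 0.44 and -0.18. RPS28B and RPS12 were below 0 on both arrays, and the other 4 had 1 array on each side. In ptc5 RPS9A was highest, at 0.52 and 0.089, then RPS19B (YNL302C), for a head protein needed to mature the subunit, at 0.60 and -0.032, and RPS4A at 0.53 and -0.012. RPS28B was lowest in ptc5, at -0.14 and -0.22, then RPS1B at -0.33 and 0.033 and RPS6B (YBR181C), for a body protein phosphorylated downstream of TORC1, at -0.0030 and -0.29. RPS28B was thus among the 3 lowest genes in ptc1, ptc4 and ptc5, which by the design text share the wt RNA sample.

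**Figure D2:**
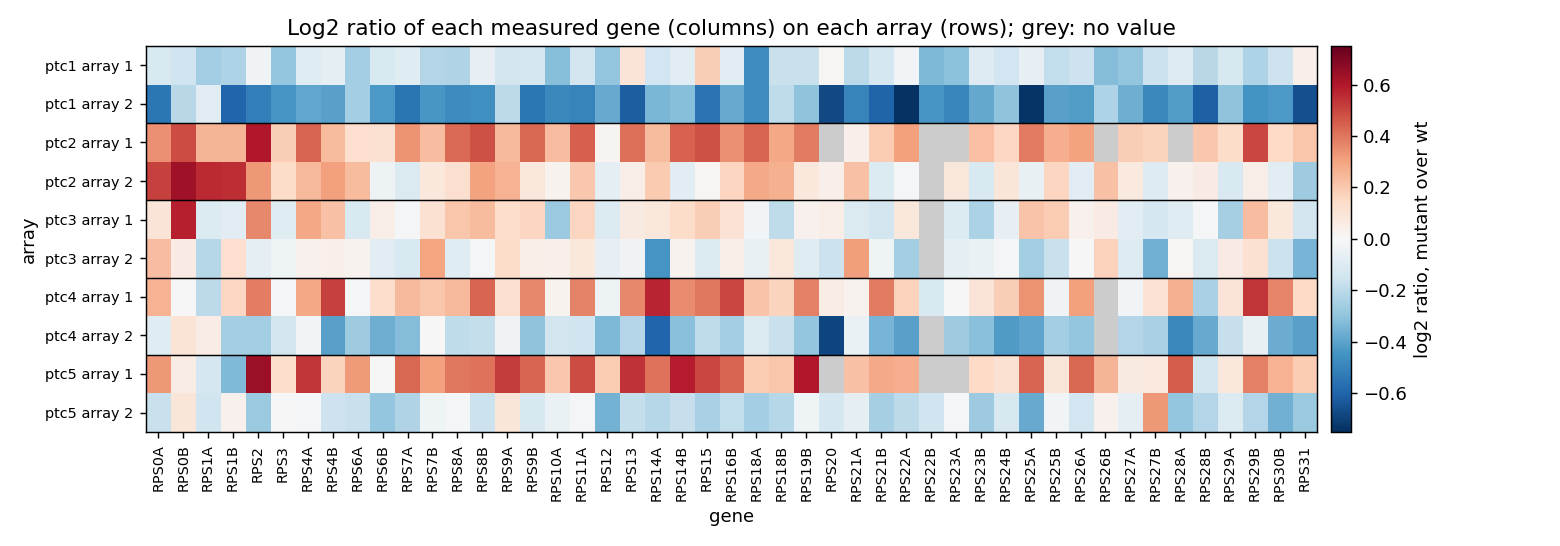
Log2 ratio of mutant over wt for 47 of the 50 small-subunit genes with a value (columns, in order of protein number) on the 10 arrays (rows), in blue below 0 and red above 0, with grey for no value. Array number 2 of ptc1 is blue throughout, from -0.74 to -0.085, and the ptc4 and ptc5 rows turn from mostly red on number 1 to mostly blue on number 2.

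The single-copy genes have no second copy among these genes to share signal with, and their remaining values follow the same outline. Signal shared with genes outside this set, as through the ubiquitin part of RPS31, was not tested. RPS3 read 0.18 and 0.14 in ptc2, -0.088 and -0.035 in ptc3, -0.0090 and -0.14 in ptc4, and 0.13 and 0.0010 in ptc5. It had both arrays on the same side of 0 in all 5 mutants. RPS12 read -0.10 and -0.062 in ptc3 and 0.19 and -0.36 in ptc5. RPS2 read 0.36 and -0.068 in ptc3, 0.39 and -0.26 in ptc4, and 0.64 and -0.28 in ptc5. RPS2, unlike RPS3, had its arrays on opposite sides of 0 in these 3 mutants.

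RPS13 read 0.41 and 0.048 in ptc2, 0.065 and -0.027 in ptc3, 0.36 and -0.22 in ptc4, and 0.54 and -0.18 in ptc5. RPS15 read 0.48 and 0.016 in ptc2, 0.19 and -0.11 in ptc3, 0.39 and -0.19 in ptc4, and 0.50 and -0.25 in ptc5. Both genes were higher on array number 1 than on number 2 in every mutant. RPS31 read 0.15 and -0.41 in ptc4 and 0.19 and -0.28 in ptc5. RPS20 had only array number 2 in ptc2, at 0.036, and in ptc5, at -0.13, and read 0.051 and -0.16 in ptc3.

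Which mutant differed from the rest was tested with limma on the 5 per-mutant means of the 3606 features present on all arrays, 45 of the small-subunit genes among them. Set against the mean of the other 4 mutants, ptc1 was lower in all 45 genes, with a median difference of -0.36 on the log2 scale beside -0.084 over all features, and differences from -0.55 to -0.17. None passed an adjusted p of 0.05 in limma, beside 3.41% of all features called in either direction. At an unadjusted p under 0.05, limma gave 30 of the 45 genes, beside 20.5% of all features. The smallest adjusted p among the genes was 0.0624.

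That gene was RPS29B, for a head protein that binds zinc. Its ratios were -0.23 and -0.45 in ptc1, 0.50 and 0.042 in ptc2, 0.23 and 0.11 in ptc3, 0.54 and -0.058 in ptc4, and 0.38 and -0.22 in ptc5. The difference of ptc1 from the others was -0.53 (SE 0.135), which limma gave an adjusted p of 0.0624. Both ptc1 arrays were below the other 8, array number 1 of ptc1 only just below array number 2 of ptc5.

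RPS7B read -0.22 and -0.44 in ptc1, 0.23 and 0.078 in ptc2, 0.12 and 0.29 in ptc3, 0.21 and 0.0030 in ptc4, and 0.31 and -0.034 in ptc5. Both ptc1 arrays were below the other 8. Its difference was -0.48 (SE 0.127, limma adjusted p = 0.0726). RPS11A (YDR025W), for a body protein, read -0.14 and -0.50 in ptc1, 0.45 and 0.20 in ptc2, 0.16 and 0.079 in ptc3, 0.37 and -0.15 in ptc4, and 0.49 and -0.0090 in ptc5. Its difference was -0.52 (SE 0.139, limma adjusted p = 0.0745). Array number 1 of ptc1 overlapped array number 2 of ptc4 in RPS11A.

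The count of called genes in ptc1 depended on how the arrays entered. With each array centred on its own median, limma called 1 of 45, RPS11A, at an adjusted p of 0.0490, among 171 of 3606 features in all. With single arrays as samples and a replicate block for array number, it called 12 of 45, among 395 of the 3606 features. These were RPS18A, RPS8A, RPS11A, RPS29B, RPS4A, RPS7B, RPS9B, RPS2, RPS25A, RPS8B, RPS0A and RPS3, with adjusted p-values from 0.0122 to 0.0408. The spread in that fit is between arrays of the same extract.

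Within each dye orientation the comparison gave the same direction for every gene. Among arrays of number 1, ptc1 minus the mean of the other 4 mutants had a median of -0.35 over the 45 genes, beside -0.054 over all features, and among arrays of number 2 it had a median of -0.39, beside -0.12. All 45 were below 0 in both orientations, as were 48.4% of all features. The mean of ptc1 was the lowest of the 5 mutants for all 45 genes and for 42.1% of all features. RPS18A differed most on number 1, by -0.67 against -0.43 on number 2, and RPS31 differed least on number 1, by -0.065 against -0.33.

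**Figure D3:**
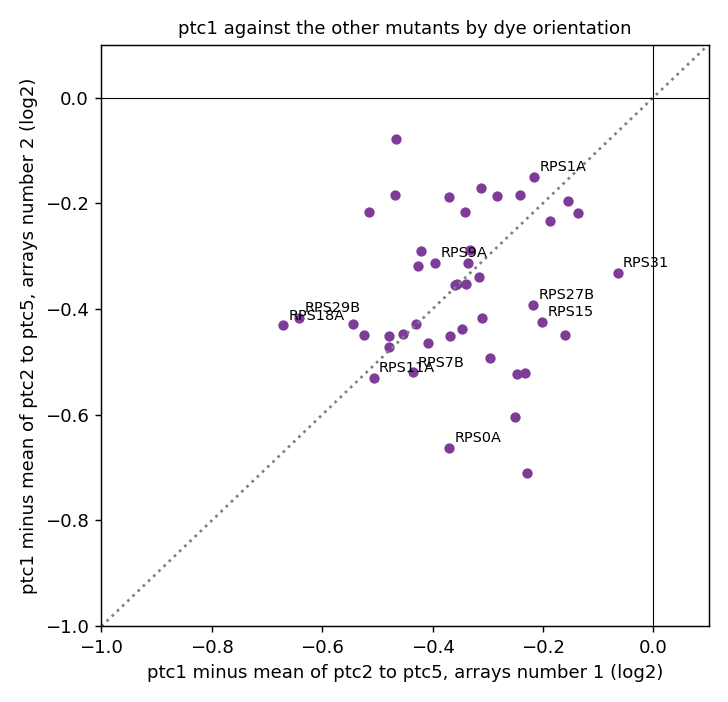
Log2 difference of ptc1 from the mean of ptc2 to ptc5 for the 45 small-subunit genes measured on all arrays, on arrays of number 1 (horizontal axis) and of number 2 (vertical axis), with the diagonal of equal difference dotted. All 45 points lie below 0 on both axes, with RPS18A at -0.67 and -0.43 and RPS31 at -0.065 and -0.33.

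Genes were also grouped by the place of their protein in the subunit. The median of ptc1 against the others was -0.37 for 14 genes of body proteins, -0.36 for 17 of head proteins and -0.36 for 14 of proteins of the platform and back. It was -0.38 for 7 single-copy genes and -0.36 for 38 genes of pairs. Differences between these classes were not tested.

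Other genes of the same pathway were read beside them. The 60 tested genes of cytosolic large-subunit ribosomal proteins were all below 0 in ptc1 against the others, with a median of -0.40 and 0 called by limma (48 at an unadjusted p under 0.05). The largest decreases against wt were in RPL9A, at -0.54 ± 0.249, RPL42A, at -0.48 ± 0.173, and RPL25, at -0.45 ± 0.312 (SD, n = 2 arrays). The 15 tested genes of mitochondrial small-subunit proteins, which belong to the separate ribosome of the organelle, had a median of 0.0099, with 0 called (0 at an unadjusted p under 0.05). The large-subunit median was close to that of the small subunit, and the mitochondrial one was not.

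Of 21 tested genes for small-subunit assembly factors and dedicated chaperones, 20 were below 0 in ptc1 against the others, with a median of -0.38. At an unadjusted p under 0.05 limma gave 14 of them. After adjustment limma called 3, all lower in ptc1 than in the others. They were NOB1, the endonuclease that matures the end of the small-subunit RNA, at -0.61 (adjusted p = 0.0376), ENP1, a factor of pre-ribosome assembly and export, at -0.63 (adjusted p = 0.0431), and PNO1, a partner of Nob1, at -0.55 (adjusted p = 0.0492). Against wt these 3 were near 0 in ptc1, between -0.13 and -0.087, and higher in the other mutants, between 0.33 and 0.63. The contrast thus combined a small decrease in ptc1 with increases elsewhere. The median of the list against wt was -0.099 in ptc1, and 0.23, 0.17, 0.30 and 0.27 in ptc2 to ptc5. Beside them the small-subunit genes had medians of -0.032, -0.021 and 0.076 in ptc3, ptc4 and ptc5.

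Of 14 tested genes for regulators of ribosomal protein genes, limma called 0 in ptc1 against the others (3 at an unadjusted p under 0.05), with a median of -0.098. Those furthest from wt in ptc1 were TOD6, for a repressor of ribosome synthesis genes, at 0.19 ± 0.046, SFP1, for an activator of ribosomal protein genes, at -0.18 ± 0.083, and ESA1, for a histone acetyltransferase, at 0.15 ± 0.14 (SD, n = 2 arrays). TOD6 was higher in the other mutants, from 0.51 to 0.75, and was the 1 gene of the list that limma called in the mean of the 5 mutants against wt, at 0.54 (adjusted p = 0.0476).

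Genes that mark stationary phase and other cell states were mixed in the ptc1 comparison. Of 17 listed 8 were tested, 3 above 0 and 5 below it, with a median of -0.14. Limma called the 3 that were higher in ptc1 than in the other 4: HSP12, for a membrane-protecting stress protein, by 3.70 (adjusted p = 4.6e-05), HSP26, for a small heat-shock chaperone, by 1.98 (adjusted p = 0.0173), and SNZ1, for an enzyme of vitamin B6 synthesis, by 0.95 (adjusted p = 0.0169). HSP12 was 1.497 above wt in ptc1 and between -2.50 and -1.78 in the others. The median of the list against wt was 0.036 in ptc1 over 13 genes and between -0.078 and 0.058 in the others over 9 to 11 genes. Their part in the small-subunit result was not tested.

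Set against the mean of the other 4 mutants, ptc2 was higher in all 45 small-subunit genes, with a median of 0.26 beside 0.13 over all features, and limma called 0 of 45, beside 0% of all features (5 of 45 at an unadjusted p under 0.05, beside 11.5%). With each array centred, the medians were 0.14 and 0.0010. RPS1A had the smallest p. It read 0.25 and 0.56 in ptc2, -0.26 and -0.085 in ptc1, -0.11 and -0.21 in ptc3, -0.20 and 0.058 in ptc4, and -0.13 and -0.15 in ptc5. Both ptc2 arrays of RPS1A were above the other 8, by 0.54 on average (SE 0.119), which limma gave an adjusted p of 0.360. RPS1B differed by 0.55 (adjusted p = 0.381) and RPS0B by 0.50 (adjusted p = 0.395) in limma. With the replicate block 1 gene was called, RPS1A, at a limma adjusted p of 0.0465, among 53 of 3606 features, a share near that of the 45 genes.

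For ptc3, ptc4 and ptc5, each against the mean of the other 4, limma called 0 of 45 small-subunit genes, and 0 had an unadjusted p under 0.05. Of all features limma called 0.0277% in ptc3, 0.0277% in ptc5 and 0% in ptc4. The genes of smallest p were RPS14A by -0.19, RPS27B by -0.20 and RPS7B by 0.19 in ptc3, RPS28B by -0.18, RPS29B by 0.19 and RPS25B by -0.13 in ptc4, and RPS27B by 0.35, RPS19B by 0.28 and RPS9A by 0.24 in ptc5. Their limma adjusted p-values were all at 0.999 or above.

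Averaged over the 5 mutants, the genes lay close to wt. The mean of the 5 had a median of -0.024 over the 45 genes, beside 0.024 over all features, and limma called 0 of 45 beside 0.194% of all features, with 2 of 45 at an unadjusted p under 0.05. The genes of smallest p were RPS31 at -0.15 (adjusted p = 0.180), RPS12 at -0.14 (adjusted p = 0.205) and RPS28B at -0.17 (adjusted p = 0.245). The test takes wt as exact. The counts rested on the arrays used, over all features as well. With the replicate block 3 of 45 were called beside 989 of 3606 features, and without ptc1 3 beside 706. Without array number 1 of each mutant 1 was called beside 194 features, and without array number 2 4 were called beside 349.

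More of these genes were called by dye orientation than by mutant. The same held for all features, with 17.4% called in either direction by orientation beside 3.41% in ptc1. The fits differ in residual degrees of freedom, 4 beside 3, so the counts do not rank the differences by size. Over the 45 genes the median for ptc1 against the others was -0.36. The difference of array number 1 minus array number 2 of the same mutant was tested over the 5 mutants with limma, and 22 of the 45 small-subunit genes were called, all higher on array number 1, beside 7.38% of all features called in that direction. The difference was above 0 in 43 of 45 genes, with a median of 0.32 beside -0.0087 over all features. It was above 0 in all 5 mutants for 25 of 45 genes (55.6%), beside 14.4% of all features. By mutant the median was largest in ptc4 (0.50) and ptc5 (0.47), then 0.29 in ptc1, 0.19 in ptc2 and 0.11 in ptc3. The count was 6 without ptc5 and 8 without ptc4, and between 17 and 24 without another mutant. Calls over all features in these fits are not given here, so a general loss of calls cannot be told apart. Array number and dye coincide and cannot be told apart.

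The largest difference was in RPS25A (YGR027C), for a head protein used by viral internal ribosome entry sites. It read 0.67, 0.44, 0.47, 0.73 and 0.81 higher on array number 1 in ptc1 to ptc5, 0.63 on average (SE 0.0975, limma adjusted p = 0.00156). Among the next largest were RPS15 at 0.56 (adjusted p = 0.00308), RPS2 at 0.55 (adjusted p = 0.00480), RPS22A, for a body protein, at 0.49 (adjusted p = 0.00606) and RPS31 at 0.48 (adjusted p = 0.00626), all by limma. RPS25A and these genes were called under all 7 alternatives run for this difference, with adjusted p-values of at most 0.0370. RPS3, by contrast, differed by 0.081 (SE 0.0921, limma adjusted p = 0.562), and RPS1A had the lowest difference, at -0.12.

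**Figure D4:**
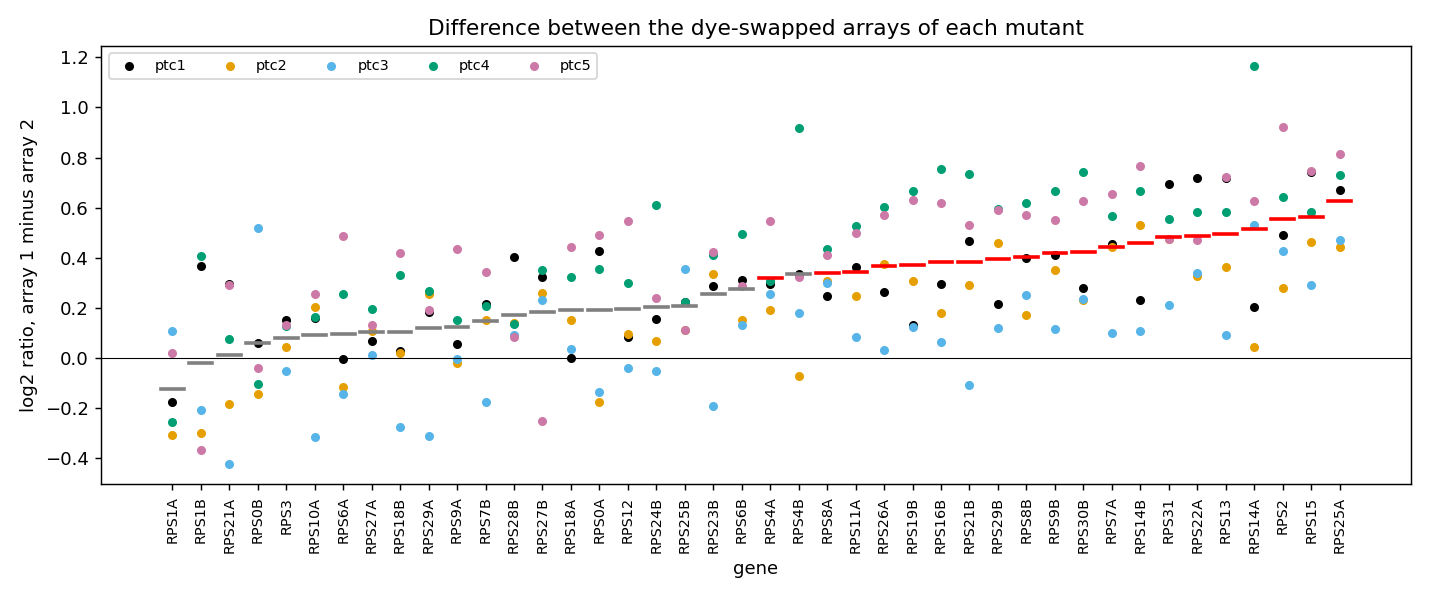
Log2 ratio on array number 1 minus that on array number 2 (vertical axis) for 42 of the 45 small-subunit genes measured on all arrays (horizontal axis, ordered by mean), with a point for each mutant and a bar for the mean of the 5, red where limma called it. The bars run from -0.12 for RPS1A to 0.63 for RPS25A, and the 20 red bars shown are all above 0.

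Of the 7 single-copy genes tested 5 were called by orientation, with a median difference of 0.50, and of 38 genes of pairs 17, with a median of 0.27. By place, 8 of 14 genes of body proteins, 8 of 17 of head proteins and 6 of 14 of platform and back proteins were called. Copies of a pair were not always called together: of the 14 pairs with both copies on all arrays, limma called both copies in 2, 1 copy in 7 and neither in 5. Differences between these classes were not tested.

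The large-subunit genes had a like difference, with 22 of 60 called higher on array number 1, 1 called lower and a median of 0.27. Of the other lists, 0 of 15 mitochondrial small-subunit genes were called higher (1 lower, median -0.037), 0 of 21 assembly factors (4 lower, median -0.10) and 0 of 14 regulators (2 lower, median -0.13). Over all features 266 of 3606 were called higher and 360 lower. With lists this small, their counts are not set apart from those shares.

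The paralogue pairs were compared by the log2 ratio of copy A minus that of copy B on the same array. In the 14 pairs with both copies measured throughout, the mean over the 5 mutants lay between -0.15 and 0.087, and 13 of the 14 were under 0.1 in size, with a median size of 0.064. On single arrays the median size of the difference was 0.14 and the largest 0.51. No pair kept 1 sign on all 10 arrays.

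RPS29 had the largest mean difference, with copy A minus copy B at -0.15 ± 0.18 (SD, n = 5 mutants). By array it was 0.11 and 0.15 in ptc1, -0.36 and -0.16 in ptc2, -0.48 and -0.050 in ptc3, -0.44 and -0.12 in ptc4, and -0.29 and 0.11 in ptc5. Copy A was the higher copy on both ptc1 arrays and the lower on both arrays of ptc2, ptc3 and ptc4, and that difference between mutants was not tested. RPS7 followed at -0.097 ± 0.11, RPS4 at 0.087 ± 0.10, RPS14 at -0.082 ± 0.11, RPS0 at -0.080 ± 0.092 and RPS9 at 0.071 ± 0.081. In each of these 6 pairs the SD over mutants exceeded the size of the mean difference. The smallest means were in RPS27, at -0.0019 ± 0.14, and RPS1, at 0.011 ± 0.15. A mean near 0 did not mean that the copies read alike: in RPS1 copy A was 0.51 above copy B on array number 2 of ptc1 and 0.35 below it on array number 1 of ptc4.

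**Figure D5:**
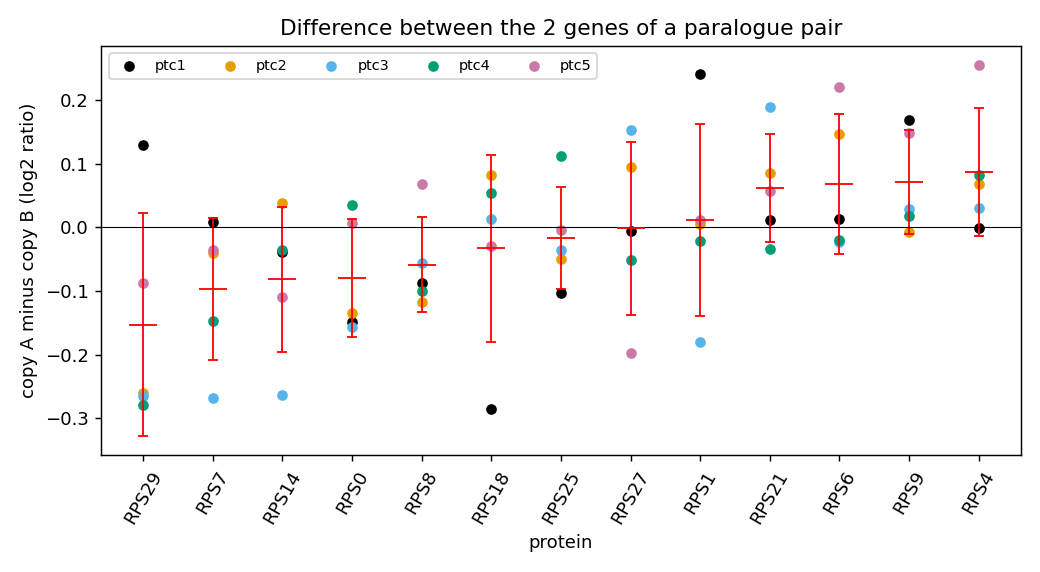
Log2 ratio of copy A minus copy B (vertical axis), averaged over the 2 arrays of each mutant (points), for 13 of the 14 pairs measured in every mutant (horizontal axis, ordered by mean), with the mean and SD over the 5 mutants in red. The means run from -0.15 in RPS29 to 0.087 in RPS4, and each SD bar reaches 0.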

How the data were processed

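RNA of 6 yeast strains was hybridised to 10 two-colour arrays. According to the labels, 30 ml of culture was harvested and 8 µg of RNA labelled as cDNA, and the authors left out spots under 120 µm across or under 150 units in Cy3 and Cy5. The deposited values are log2 ratios of mutant over wt. Base 2 was assumed. Natural logarithms would fit the values too, and folds would then be too small. The direction was taken from the labels and the mutated genes. The sources used here do not give the scanner, background correction, normalization or software. Precision is limited by the number of RNA samples per strain as well as by the number of arrays.

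Values were used as deposited. Symbols were taken from RefSeq (assembly R64), where 5639 of 6212 identifiers had a locus tag and 573 had none. The array's build is not given, so no coordinates are printed, and no sequence was used.

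The 2 arrays of a mutant were averaged, and mutants were compared with limma 3.58.1 in R 4.3.3 on the 3606 features with values on all arrays, with Benjamini-Hochberg adjustment over all of them and calls at an adjusted p of at most 0.05. Genes were also counted by size, where the log2 mean lay 0.32 or more from 0 and both arrays were on that side. The tests were checked on simulated data with added changes larger than any difference of the small-subunit genes. Recovery of differences as small as theirs was not checked.

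Differences of array number 1 minus number 2 were positively correlated between mutants for each of the 10 pairs of mutants (r from 0.17 to 0.67 across features), so the array numbers, which coincide with dye orientation, pair the arrays.

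The members, the 5 gene lists and the rules were chosen with earlier results of these data known. Genes named are the single-copy genes, the 3 highest and lowest per mutant, the called genes or, if more than 12, the 6 of smallest adjusted p (the 3 of smallest p where none was called), the 4 genes of largest orientation difference, the 6 most and 3 least divergent pairs, the mutated PTC genes, and per list the called genes and the 3 furthest from 0 in ptc1. Genes called under an alternative, and genes that stand out on 1 array, were named after their values were seen. Alternatives were centring, missing spots, robust moderation, single arrays as samples (with a replicate block or without), and leaving out array numbers or mutants. The single values of 3 genes are not reported here, though counts and medians include them.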

Additional observations from a re-analysis of the deposited data

Results flagged for a closer look

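For the results here, both arrays of 1 mutant lay below wt and both arrays of another lay above it. With 1 extract per mutant the difference was not tested, and by the design text all mutants share the wt RNA sample. Values are differences of the 2-array means on the log2 scale.

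For the small-subunit genes, ptc2 minus ptc1 was 0.46 between the averages of the 2 array medians. These medians were over the 50 genes measured on both ptc1 arrays and the 45 measured on both ptc2 arrays. Over all features measured on both arrays of the mutant, the array medians were -0.029 and -0.015 in ptc1. In ptc2 they were 0.036 and 0.22, so all features also lay higher in ptc2. Of 45 genes 28 were below wt on both ptc1 arrays and above it on both ptc2 arrays (62.2%), beside 17.5% of 3925 features. Among the genes named in the results, ptc2 minus ptc1 was largest in RPS18A, at 0.824, RPS1B, at 0.815, and RPS0A, at 0.755, then RPS0B, at 0.741, and RPS2, at 0.737. It was 0.651 in RPS8B, 0.644 in RPS11A, 0.621 in RPS8A, 0.611 in RPS29B and 0.595 in RPS9B. It was 0.583 in RPS4A, 0.580 in RPS1A, 0.541 in RPS28B, 0.529 in RPS3 and 0.515 in RPS25B. It was smaller in RPS7B, at 0.481, RPS19B, at 0.467, RPS14A, at 0.459, and RPS9A, at 0.420.

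Among the genes named in the results, ptc3 minus ptc1 was 0.533 in RPS7B, 0.511 in RPS29B, 0.499 in RPS0B and 0.493 in RPS0A. It was 0.444 in RPS9B, 0.440 in RPS11A, 0.401 in RPS4A and 0.304 in RPS9A. ptc5 minus ptc1 was 0.523 in RPS27B, 0.476 in RPS9A, 0.436 in RPS3 and 0.251 in RPS0B. ptc4 minus ptc1 was 0.434 in RPS7B, the 1 gene of this pair. Counted with the genes not named, 12 genes lay on opposite sides in ptc1 and ptc3 and 5 in ptc1 and ptc5. Likewise 7 did so in ptc2 and ptc3 and 6 in ptc2 and ptc4. The share of all features was counted only for ptc1 and ptc2. Whether the other counts exceed that of the array as a whole is therefore not known.

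RPS1A was lower in ptc3 than in ptc2, at -0.567, and lower in ptc5 than in ptc2, at -0.546. RPS28B was lower than in ptc2 in ptc3, at -0.196, in ptc4, at -0.441, and in ptc5, at -0.310. RPS25B was lower in ptc4 than in ptc2, at -0.358, and RPS18A lower in ptc3 than in ptc2, at -0.397. RPS27B was higher in ptc5 than in ptc3, at 0.442.

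RPS3, whose arrays shared a side in every mutant, was lower than in ptc2 in ptc3, at -0.223, and in ptc4, at -0.234. It was higher in ptc5 than in ptc3, at 0.129, and than in ptc4, at 0.140, with 1 ptc5 array at 0.0010, so that these last 2 differences are small beside the spread between arrays.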

How the results depend on the processing

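Of the counts of called genes recomputed under the alternatives, 65 stayed at 0 or within 1.5 times the reported count and 9 did not. Every reported count but that of the orientation was 0. With so few mutants in a fit, a count that stays at 0 says little about stability. In ptc1 against the other mutants the count of 0 was 1 with each array centred and 12 with the array number as a replicate block, and 0 in every fit that left out an array number or a mutant. In ptc2 it was 1 with the replicate block. For the mean of the 5 mutants it was 3 with the replicate block and ranged from 0 to 4 as array numbers or mutants were left out, with 1 without array number 1, 4 without array number 2 and 3 without ptc1. For the orientation the count of 22 ranged from 6, without ptc5, to 24, without ptc2, with 8 without ptc4. The replicate block moved no other count away from 0. The medians against wt ranged over the single arrays from -0.45 to -0.15 in ptc1, from 0.079 to 0.25 in ptc2, from -0.035 to 0.048 in ptc3, from -0.26 to 0.20 in ptc4 and from -0.17 to 0.26 in ptc5. As deposited, the ptc1 and ptc2 medians kept their sign over both arrays. Centring moved that of ptc2 to 0.070, and relative to all features its arrays lay on opposite sides, at 0.22 and -0.14. Among named genes the direction turned for RPS7B in ptc3 without array number 2, at -0.015 (0.39 without number 1), and for RPS31 in the mean of the 5 mutants without array number 2, at 0.090 (-0.39 without number 1). The cause of these changes was not tested, other than that fits without an array number rest on 5 arrays of 1 orientation.

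Limits are 1 extract per strain, 2 arrays each, an unstated normalization and log base, signal intensities not used here, and 11 of 56 genes outside the main tests.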
